A study of Rattus norvegicus with 38 samples.

Results

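The genes described are the 8 rat MHC class II genes with probesets on the arrays of this study: RT1-Ba, RT1-Bb, RT1-Da, RT1-Db1, RT1-DMa, RT1-DMb, Cd74 and Ciita. Members were chosen by gene symbol alone, as every probeset annotated to 1 of these genes. This gave 11 of 15866 probesets on the RAE230A arrays used for heart tissue and 14 of 31042 on the RAE230 2.0 arrays used for peripheral blood mononuclear cells (PBMC). A probeset is a set of short oligonucleotides whose combined brightness is 1 signal for 1 stretch of transcript. No probeset annotated to several genes named a member.

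The study placed Dark Agouti (DA) donor hearts into the abdomen of Brown Norway (BN) rats, which reject them, or of DA rats, which accept them, and collected tissue on post-transplant day 6. Heart tissue came from 5 allografts (DA hearts in BN recipients), 4 isografts (DA hearts in DA recipients), 5 native BN hearts of the same allograft recipients and 4 native DA hearts of the same isograft recipients. PBMC came from 5 rats given an allograft (BN), 9 rats given an isograft (DA) and 6 untransplanted rats, 3 BN and 3 DA. The study made 5 allogeneic transplants, so its allograft recipients gave both hearts and PBMC. Isograft numbers 9, 11 and 12 also occur in both tissues. Heart and PBMC results are thus not from separate animals. All grafts were DA hearts, so an allograft may hold RNA of DA donor cells and of BN cells that entered it, and whole-tissue arrays cannot tell the amount of a transcript per cell from the number of cells that carry it. In native hearts the strain coincides with the kind of graft the rat carried. PBMC of transplanted and of untransplanted rats were processed as 2 batches, so their levels are given side by side and are not compared.

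MHC class II molecules are pairs of an alpha and a beta chain that hold peptides from engulfed protein on the surface of dendritic cells, macrophages and B cells, where CD4 T cells read them. RT1-B (chains RT1-Ba and RT1-Bb) and RT1-D (RT1-Da and RT1-Db1) are the rat's classical class II molecules. Cd74 is the invariant chain that occupies the binding groove during assembly, the RT1-DM pair (RT1-DMa and RT1-DMb) exchanges its remnant for peptide, and Ciita is the coactivator without which the class II genes are hardly transcribed. Interferon gamma induces Ciita in many cell types, and donor class II is a main target of the recipient's T cells.

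Ciita acts through factors already bound to a shared promoter module, among them the RFX complex at the X box and NF-Y at the Y box. The promoters below are shown so that the letters of its X and Y boxes can be read in each gene. A link between these letters and the signals was not tested. Sequences of 6 of the 8 genes (not of RT1-DMb and Ciita) were matched in RefSeq promoters of build GRCr8. Of the 250 bases before the start of transcription, 60 are printed 5′ to 3′ on the strand of the gene, ending 5 bases past the first ATTGG, for the 5 genes with ATTGG on that strand. Capitals mark AGCAAC (the core of an X box) and ATTGG (the core of a Y box).
RT1-Da, chr20:4515316-4515375, plus strand: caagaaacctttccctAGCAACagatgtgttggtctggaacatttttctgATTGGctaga
RT1-Db1, chr20:4560233-4560292, minus strand: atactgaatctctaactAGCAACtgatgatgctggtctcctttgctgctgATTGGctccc
RT1-Ba, chr20:4576964-4577023, plus strand: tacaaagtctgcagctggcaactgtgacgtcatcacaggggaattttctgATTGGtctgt
RT1-Bb, chr20:4604170-4604229, minus strand: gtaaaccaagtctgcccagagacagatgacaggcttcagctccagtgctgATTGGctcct
RT1-DMa, chr20:4712390-4712449, minus strand: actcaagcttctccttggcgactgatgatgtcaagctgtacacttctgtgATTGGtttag

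All 6 member promoters held ATTGG on either strand, against 34% of 33469 rat promoters of the same length. AGCAAC on either strand was found in 3 of the 6 (Cd74, RT1-Da and RT1-Db1), against 12.1% of promoters. AGCAAC followed by ATTGG on the gene strand with 15 to 50 bases between them was present in RT1-Da and RT1-Db1, and in 0.206% of all promoters. The longer run TGATTGG, which contains ATTGG and was picked after the sequences had been seen, was in 5 of the 6 (not Cd74), against 6.42% of all promoters. These are letter matches in a fixed window, which were not tested for binding. In the GRCr8 annotation RT1-Da, RT1-Db1, RT1-Ba, RT1-Bb, RT1-DMb and RT1-DMa lie in this order on chromosome 20.

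Signals are given in array medians: the deposited signal divided by the median of all probesets on the same array, so that 1 is the middle probeset. The raw medians ran from 38.3 to 50.8 in heart and from 20.2 to 36.8 in PBMC, where they were 20.2 to 23.7 in the batch of untransplanted rats and 26.6 to 36.8 in the batch of recipients. Each fold change compares 2 group means of log2 signals and carries the standard error (SE) of the limma model in log2 units. A probeset passed where its limma p, adjusted by Benjamini-Hochberg over the whole array, did not exceed 0.10. It was called when it also changed at least 3-fold and 50% or more of the samples in 1 of the groups reached the array median. In heart 10 of the 11 member probesets reached that signal in some group, and in PBMC 13 of 14. The exception on both arrays was RT1-Bb 1371065_at, which lay between 0.0145 and 0.523 array medians in every sample.

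All 8 class II genes were higher in rejecting allografts than in isografts, the comparison that addresses rejection. By 1 probeset per gene (the brightest), the median log2 fold change was 2.62, against 0.02 over all probesets. Of the 11 member probesets 10 passed the test as higher, where 20.3% of all heart probesets did, and 7 were called, against 3.81%. None passed as lower (21.2% of all probesets did) and none was called lower (5.05%). Among probesets at or above the array median in every heart of both groups, the largest increases were those of RT1-DMa (12.7-fold), RT1-DMb (8.43-fold), RT1-Db1 1370383_s_at (8.40-fold) and RT1-Bb (7.03-fold).

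RT1-Da, the alpha chain of RT1-D, had 139, 125, 74.7, 94.2 and 85.3 array medians in the 5 allografts, against 21.4, 20.4, 14.6 and 20 in the 4 isografts. Its beta chain RT1-Db1 had 91.0, 77.4, 45.1, 52.9 and 54.4 array medians in allografts by 1370383_s_at, against 10.6, 6.94, 6.59 and 6.13 in isografts. Every allograft lay above every isograft for both chains. RT1-Da was 5.34-fold higher (SE 0.20, limma adjusted p = 1.12e-07) and RT1-Db1 8.40-fold higher (SE 0.26, limma adjusted p = 1.42e-07). The second RT1-Db1 probeset, 1370382_at, was much dimmer, at 2.01 to 4.41 array medians in allografts and 0.17 to 0.51 in isografts. Its fold change was measured against signals below the array median in every isograft, and its log2 value of 3.37 became 2.57 with 0.25 array medians added to all signals. Both RT1-Db1 probesets were designed on the same source sequence, and probes of an _s_at probeset can match more than 1 transcript.

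RT1-Bb, the beta chain of RT1-B, had 74.7, 68.1, 51.2, 56.7 and 44.9 array medians in allografts by 1371033_at, against 9.86, 10.2, 6.67 and 6.96 in isografts. Its alpha chain RT1-Ba had 11.8, 12.9, 12, 12.2 and 11.1 array medians in allografts by 1370822_at, against 7.12, 4.77, 2.27 and 3.18 in isografts. The groups did not overlap for either chain. The allografts were more alike for 1370822_at (SD 0.08 of the log2 signal) than for any other member probeset. For RT1-Ba 1377334_at the SD in the same hearts was 0.57. RT1-Bb rose 7.03-fold (SE 0.21, limma adjusted p = 3.99e-08) and RT1-Ba 3.03-fold (SE 0.34, limma adjusted p = 0.0013). The other RT1-Ba probeset, 1377334_at, did not pass (1.19-fold, SE 0.44, limma adjusted p = 0.705), with 1.08 to 2.89 array medians in allografts and 1.34 to 2.16 in isografts. RT1-Bb 1371065_at passed (4.77-fold, SE 0.70, limma adjusted p = 0.0183) below the array median in every heart, and its groups overlapped.

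The RT1-DM pair, which edits the bound peptide, showed the largest contrast between the grafts among the genes outside RT1-B and RT1-D. RT1-DMa had 28.8, 22.1, 17.2, 23.0 and 15.2 array medians in allografts, against 1.56, 1.92, 1.65 and 1.42 in isografts (12.7-fold, SE 0.25, limma adjusted p = 1.48e-08). RT1-DMb had 56.8, 46.5, 33.4, 39.9 and 46.7 array medians in allografts, against 5.69, 4.72, 5.11 and 5.40 in isografts (8.43-fold, SE 0.17, limma adjusted p = 3.08e-09). The lowest allograft stood several times above the highest isograft for both genes.

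Cd74, the invariant chain, had 174, 148, 88.0, 102 and 111 array medians in allografts, against 47.6, 34.1, 35.1 and 47.6 in isografts. It rose 2.97-fold (SE 0.22, limma adjusted p = 2.24e-05), just under the limit of 3 for a call. Cd74 was near the top of the brightness scale in the allografts, where between 0 and 6 probesets of the array were brighter, against 203 to 233 in isografts. Ciita, the coactivator, had 4.07, 2.87, 2.76, 3.02 and 2.11 array medians in allografts, against 1.03, 0.93, 1.16 and 0.982 in isografts. Its increase was 2.83-fold (SE 0.18, limma adjusted p = 6.53e-06), without overlap, and it too fell short of the 3-fold limit.

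**Figure D1:**
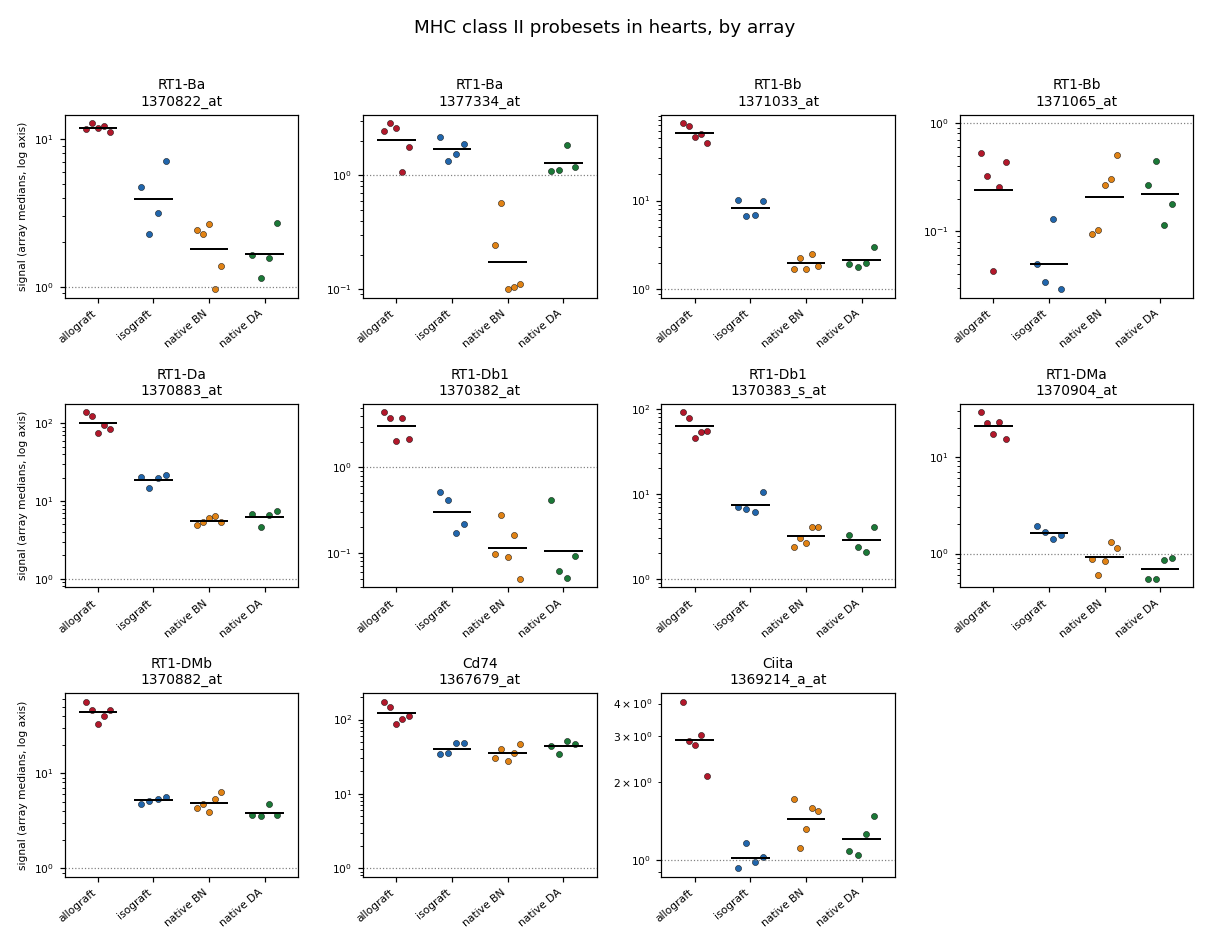
Signal of the 11 class II probesets in array medians (log axis) in allografts, isografts, native BN and native DA hearts, 1 point per heart, with the geometric mean as a bar and the array median as a dotted line. The allografts stand above the other groups in 9 panels. RT1-Ba 1377334_at is low in native BN hearts only, and RT1-Bb 1371065_at is below the array median throughout.

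Genes that serve the class II pathway rose with the members, where 20.3% of all heart probesets passed as higher and 21.2% as lower. Of 11 measured genes of antigen processing, 10 rose and 1 fell in allografts relative to isografts. The lysosomal protease cathepsin Z (Ctsz) was 12.2-fold higher (SE 0.25), the class II ubiquitin ligase Marchf1 7.14-fold (SE 0.48, below the array median in every isograft) and cathepsin S (Ctss), which cuts the invariant chain, 6.38-fold (SE 0.17; the 3 limma adjusted p-values at most 0.000171). Cystatin C (Cst3), an inhibitor of cathepsins, was the gene that fell (0.31 times the isograft level, SE 0.20, limma adjusted p = 4.61e-06). Of 13 genes of class II transcription and interferon gamma signalling, 8 rose and 1 fell. Among them were Irf1 (4.15-fold, SE 0.23), an interferon-induced factor that acts on Ciita, and Irf8 (3.47-fold, SE 0.25). Ifng itself passed at 3.59-fold (SE 0.70, limma adjusted p = 0.0503) but was below the array median in every heart. Of 6 genes of recognition and costimulation, 4 rose, led by Cd40 (12.3-fold, SE 0.40) and Cd86 (6.81-fold, SE 0.49). Cd40 and Cd86 were below the array median in every isograft. Cd80, Cd28 and Cd40lg were below it in every allograft and every isograft.

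Markers of infiltrating cells moved in the same comparison, in which 20.3% of all heart probesets passed as higher and 21.2% as lower. All 8 measured monocyte and macrophage genes passed as higher in allografts, and their summed signal was 267 to 449 array medians in allografts and 53.9 to 85.9 in isografts. All 9 T cell genes passed as higher (19.9 to 44.9 against 4.64 to 5.15 array medians), and 8 of these 9 were below the array median in every isograft. Of 3 dendritic cell genes 2 passed as higher (10.2 to 21.1 against 2.41 to 4.97), while Clec9a was below the array median in every heart group. All 3 neutrophil genes passed as higher (5.27 to 29.0 against 1.53 to 3.24 array medians), of which Cxcr2 was below the array median in every heart. The 1 B cell gene measured in heart, Cd79b, stayed below the array median in every heart. All 8 cardiomyocyte genes passed as lower (95.5 to 228 array medians in allografts, 498 to 868 in isografts). The part of these cells in the class II result was not tested.

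The probeset signals of the partner chains of 1 molecule did not rise by the same factor. The log2 ratio of RT1-Bb 1371033_at to RT1-Ba 1370822_at was 2.28 ± 0.26 in allografts (SD, n = 5) and 1.06 ± 0.45 in isografts (SD, n = 4). It differed by 1.21 (two-sided exact permutation p = 0.00794, the lowest value possible with 5 and 4 hearts, adjusted p = 0.0212 over 8 tests). The ratio of RT1-Db1 1370383_s_at to RT1-Da was -0.70 ± 0.08 in allografts (SD, n = 5) and -1.36 ± 0.33 in isografts (SD, n = 4), a difference of 0.65 (exact permutation p = 0.00794, adjusted p = 0.0212). These ratios were chosen after their values had been seen, and equal binding of the probes to the transcripts of both strains was not tested. RT1-Da was near the top of the brightness scale in allografts, where 4 to 24 probesets were brighter, against 398 to 582 in isografts. Whether so bright a signal still rises in proportion to its transcript was not tested.

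Class II transcripts were also higher in isografts, which are not rejected, than in the native DA hearts of the same rats. Of the 11 probesets 5 passed as higher (7.15% of all probesets did) and 1 was called, against 0.826%. The 5 were RT1-Bb (3.86-fold, SE 0.22, limma adjusted p = 0.000133), RT1-Da (2.99-fold, SE 0.21, limma adjusted p = 0.000621), RT1-Db1 1370383_s_at (2.59-fold, SE 0.27), RT1-Ba 1370822_at (2.36-fold, SE 0.36) and RT1-DMa (2.34-fold, SE 0.26). The last 3 had limma adjusted p-values of at most 0.0467. RT1-Da had 21.4, 20.4, 14.6 and 20 array medians in isografts, against 7.56, 6.90, 4.60 and 6.68 in native DA hearts. RT1-Bb had 9.86, 10.2, 6.67 and 6.96 array medians in isografts, against 3.03, 1.92, 1.81 and 1.99 in native DA hearts. Each of these 5 probesets was higher in the graft than in the native heart of the same rat in 4 of 4 recipients. The graft held 2.83 to 3.18 times the native signal for RT1-Da and 3.26 to 5.32 times for RT1-Bb. The 5 had passed on these same hearts, so the count adds no separate support. RT1-Db1 1370382_at and RT1-DMb, which did not pass, were also higher in 4 of 4 recipients.

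The other class II genes did not pass in that comparison, nor did the second probesets of RT1-Ba and RT1-Db1. RT1-Ba 1377334_at was at 1.34-fold (SE 0.47, limma adjusted p = 0.619). RT1-Db1 1370382_at was at 2.87-fold (SE 0.61, limma adjusted p = 0.135), below the array median in every heart of both groups. Cd74 had 47.6, 34.1, 35.1 and 47.6 array medians in isografts, against 47.1, 43.7, 34.6 and 50.8 in native DA hearts (0.931-fold, SE 0.23, limma adjusted p = 0.821). Ciita had 1.03, 0.93, 1.16 and 0.982 array medians in isografts, against 1.48, 1.08, 1.05 and 1.26 in native DA hearts (0.847-fold, SE 0.19, limma adjusted p = 0.477). For both, the groups overlapped. RT1-DMb was at 4.72 to 5.69 array medians in isografts and 3.51 to 4.76 in native DA hearts (1.36-fold, limma adjusted p = 0.149), and passed under both other scalings. RT1-Bb 1371065_at passed as lower, below the array median in every heart (0.0291 to 0.131 array medians in isografts, 0.114 to 0.443 in native DA hearts, limma adjusted p = 0.0863), where 6.59% of all probesets did. No member was called lower (0.0819% of all probesets were).

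Of the monocyte and macrophage genes 7 of 8 were higher in isografts than in native DA hearts, with a summed signal of 53.9 to 85.9 array medians in isografts and 24.4 to 34.9 in native DA hearts. None of the 9 T cell genes passed as higher and 1, Cd247, passed as lower. Over all probesets 7.15% passed as higher and 6.59% as lower, and the T cell counts are near these shares. Of the 9 T cell genes 8, Cd247 among them, were below the array median in every isograft. Of the 11 processing genes 7 were higher, among them Ctss (2.53-fold, SE 0.18) and Ctsz (2.24-fold, SE 0.26). Marchf1 also passed (2.94-fold, SE 0.51), with signals below the array median in every isograft and every native DA heart. The part of the macrophage signal in the class II values was not tested. The increase of RT1-Ba 1370822_at did not pass without isograft 9 or 11 or native DA heart 12 or 13 (adjusted p = 0.103 to 0.113), and the other 4 of these 5 probesets passed without any 1 heart.

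Against the native BN hearts of the same recipients, allografts had higher signals for 10 of the 11 probesets (23.1% of all probesets passed as higher), and 9 were called (5.41%). None passed or was called as lower, where 26.3% and 5.67% of all probesets did. RT1-Bb 1371033_at had 74.7, 68.1, 51.2, 56.7 and 44.9 array medians in allografts, against 1.71, 2.26, 1.69, 2.52 and 1.83 in native BN hearts. This was a 29.4-fold difference (SE 0.20, limma adjusted p = 4.14e-11). Within recipients the graft held 22.5 to 43.5 times the native signal. The other called probesets ran from 22.5-fold for RT1-DMa down to 3.42-fold for Cd74, apart from RT1-Db1 1370382_at. That probeset lay below the array median in all 5 native BN hearts (0.0497 to 0.276 array medians), and its log2 fold change of 4.75 became 3.15 with 0.25 array medians added. Ciita passed at 2.01-fold (SE 0.17, limma adjusted p = 0.000145). RT1-Ba 1377334_at, which had not passed between allografts and isografts, was 11.7-fold higher here (SE 0.42, limma adjusted p = 2.43e-06), against native BN signals that were also all below the array median. In this comparison the donor strain of the graft and the strain of the native heart differ. Each of the 4 heart groups enters 2 of the comparisons described, so these are not independent of each other.

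**Figure D2:**
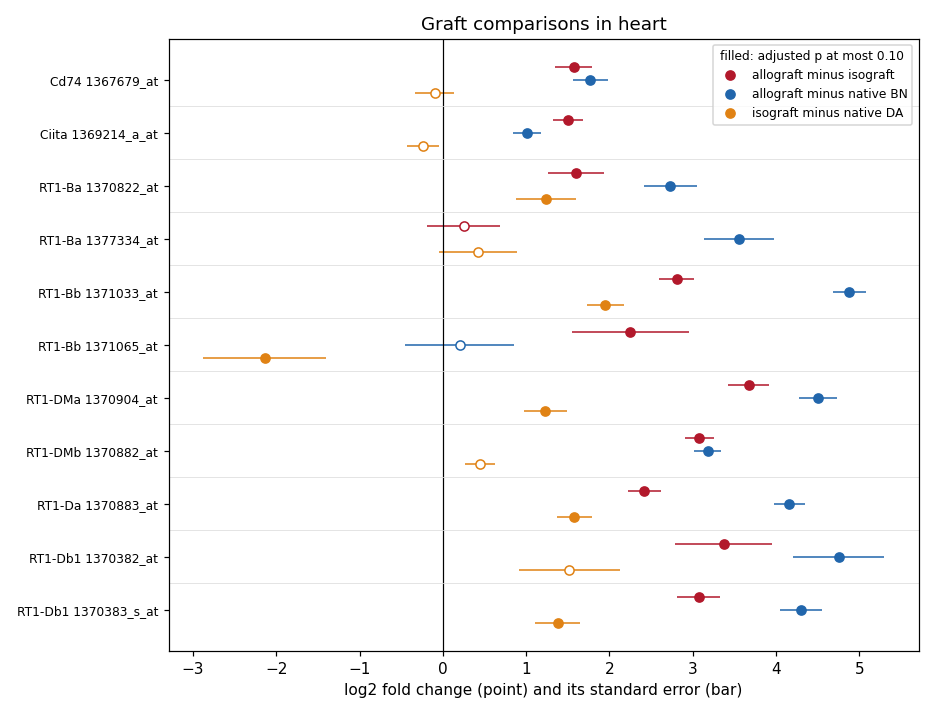
Log2 fold change (point) and standard error (bar) of the 11 class II probesets for allografts minus isografts, allografts minus native BN hearts and isografts minus native DA hearts. Filled points passed at an adjusted p of at most 0.10. Cd74 and Ciita lie near 0 for isografts and at 1.57 and 1.5 for allografts against isografts, and RT1-Ba 1377334_at passes only against native BN hearts.

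Between native BN and native DA hearts, the comparison for strain, 10 of the 11 probesets did not pass. With 5 and 4 hearts this does not show that their signals are equal. The 1 that passed, RT1-Ba 1377334_at, had 0.244, 0.570, 0.0994, 0.104 and 0.110 array medians in native BN hearts, against 1.19, 1.09, 1.11 and 1.86 in native DA hearts. It was lower in every BN heart than in every DA heart, by 7.35-fold (log2 fold change -2.88, SE 0.44, limma adjusted p = 0.00213), where 1.46% of probesets passed as lower and 0.202% were called. None passed or was called as higher (1.48% and 0.158%). RT1-Ba 1370822_at had 2.42, 2.27, 2.66, 0.957 and 1.38 array medians in native BN hearts, against 2.70, 1.63, 1.14 and 1.57 in native DA hearts. These overlapped (1.08-fold, SE 0.34, limma adjusted p = 0.929). The 2 probesets are annotated to the same gene, and the log2 ratio of 1370822_at to 1377334_at was 3.38 ± 0.99 in native BN hearts (SD, n = 5) and 0.39 ± 0.63 in native DA hearts (SD, n = 4). The ratio differed by 2.99 without overlap (two-sided exact permutation p = 0.0159, adjusted p = 0.0476 over the 24 tests of probeset pairs in both tissues). As 1377334_at was below the array median in every native BN heart, the size of this difference rests on weak signals.

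For the remaining 9 probesets in native hearts the fold change lay between 0.81 for Cd74 (SE 0.22, limma adjusted p = 0.58) and 1.32 for RT1-DMa (SE 0.25, limma adjusted p = 0.5), and none passed. The RT1-Bb pair differed in log2 ratio by -0.03 between native BN and native DA hearts and the RT1-Db1 pair by -0.01 (exact permutation p = 0.952 and 0.992, n = 5 and 4). In each pair 1 probeset lay below the array median in every native heart, 1371065_at at 0.508 or less and 1370382_at at 0.41 or less. Ratios to such weak signals cannot decide whether the probes bind the RNA of both strains equally. In grafts the RT1-Ba pair differed again, with a log2 ratio of 2.56 ± 0.56 in allografts (SD, n = 5) and 1.21 ± 0.49 in isografts (SD, n = 4; exact permutation p = 0.00794, adjusted p = 0.0272). The RT1-Bb and RT1-Db1 pairs in grafts differed by 0.56 and 0.30 with overlap (exact permutation p = 0.563 and 0.492). The same limit holds there, as 1371065_at was below the array median in every graft and 1370382_at in every isograft.

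In PBMC the probesets of RT1-Ba went in opposite directions between the strains. On the larger array RT1-Ba has 4 probesets, of which 1381593_x_at and 1392334_at share a source sequence. 1392334_at had 138, 169 and 149 array medians in untransplanted BN rats, against 3.42, 3.37 and 2.17 in untransplanted DA rats. 1381593_x_at had 138, 170 and 154 array medians in untransplanted BN rats, against 2.03, 2.53 and 1.00 in untransplanted DA rats. Both were far higher in every BN rat, by 51.9-fold (SE 0.20, limma adjusted p = 2.92e-12) and 89.1-fold (SE 0.42, limma adjusted p = 1.91e-08).

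1370822_at had 9.89, 13.5 and 11.6 array medians in untransplanted BN rats, against 84.9, 73.3 and 52.9 in untransplanted DA rats. 1377334_at had 1.12, 1.04 and 1.18 array medians in untransplanted BN rats, against 28.1, 31.3 and 13.1 in untransplanted DA rats. Both were lower in every BN rat, by 5.97-fold (limma adjusted p = 0.000108, log2 fold change -2.58, SE 0.34) and 20.3-fold (-4.35, SE 0.33, limma adjusted p = 1.3e-07). The direction of the strain difference for RT1-Ba thus depends on the probeset, and equal hybridization of its probes to the RNA of both strains was not tested. Probes of an _x_at probeset can also match related sequences.

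Among the other genes, the DM pair was higher in untransplanted BN rats. RT1-DMa had 44.3, 47.7 and 52.0 array medians in untransplanted BN rats, against 19.0, 15.7 and 11.3 in untransplanted DA rats (3.20-fold, SE 0.25, limma adjusted p = 0.000335). RT1-DMb had 74.0, 86.5 and 78.3 array medians in untransplanted BN rats, against 48.3, 41.2 and 33.2 in untransplanted DA rats (1.96-fold, SE 0.21, limma adjusted p = 0.00825). Ciita had 18, 15.3 and 27.1 array medians in untransplanted BN rats by 1379381_at, against 10.5, 9.98 and 8.56 in untransplanted DA rats (2.03-fold, SE 0.24, limma adjusted p = 0.0168, and 0.106 without untransplanted BN rat 3). The other Ciita probeset, 1369214_a_at, had 10.9, 8.52 and 10.1 array medians in untransplanted BN rats, against 5.43, 6.21 and 5.29 in untransplanted DA rats, and did not pass (1.74-fold, SE 0.27, limma adjusted p = 0.104). Its groups did not overlap, and it passed under 5 of the alternatives tried.

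The classical chains other than RT1-Ba, and Cd74, did not pass in untransplanted rats. Cd74 had 186, 238 and 195 array medians in BN rats, against 297, 256 and 201 in DA rats (0.827-fold, SE 0.23, limma adjusted p = 0.6). RT1-Da had 145, 183 and 151 array medians in BN rats, against 235, 201 and 147 in DA rats (0.833-fold, limma adjusted p = 0.599), and RT1-Bb 1371033_at was at 0.752-fold (limma adjusted p = 0.365). By rank within the array the order of Cd74 and RT1-Da was the reverse. In BN rats 7 to 10 probesets were brighter than Cd74, against 49 to 98 in DA rats. For RT1-Da these were 82 to 90 and 109 to 145, so the direction of both depends on the measure. RT1-Db1 1370383_s_at had 111, 128 and 125 array medians in BN rats, against 102, 94.6 and 66.4 in DA rats (1.40-fold, limma adjusted p = 0.29), and passed under both other scalings. In all, 5 member probesets passed as higher and 2 as lower in untransplanted BN rats, where 3.58% and 4.86% of all PBMC probesets did. Of these, 3 were called as higher and 2 as lower (0.425% and 0.622% of all probesets). The split over all probesets, 1112 higher and 1510 lower, was 1277 and 1101 under quantile normalization and 1989 and 1314 with the deposited scaling. With the brightest probeset of each gene, which for RT1-Ba is one that was higher in BN, the median log2 fold change was 0.73, against -0.08 over all probesets. With 1370822_at or 1377334_at standing for RT1-Ba the median of the 8 genes was 0.11.

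**Figure D3:**
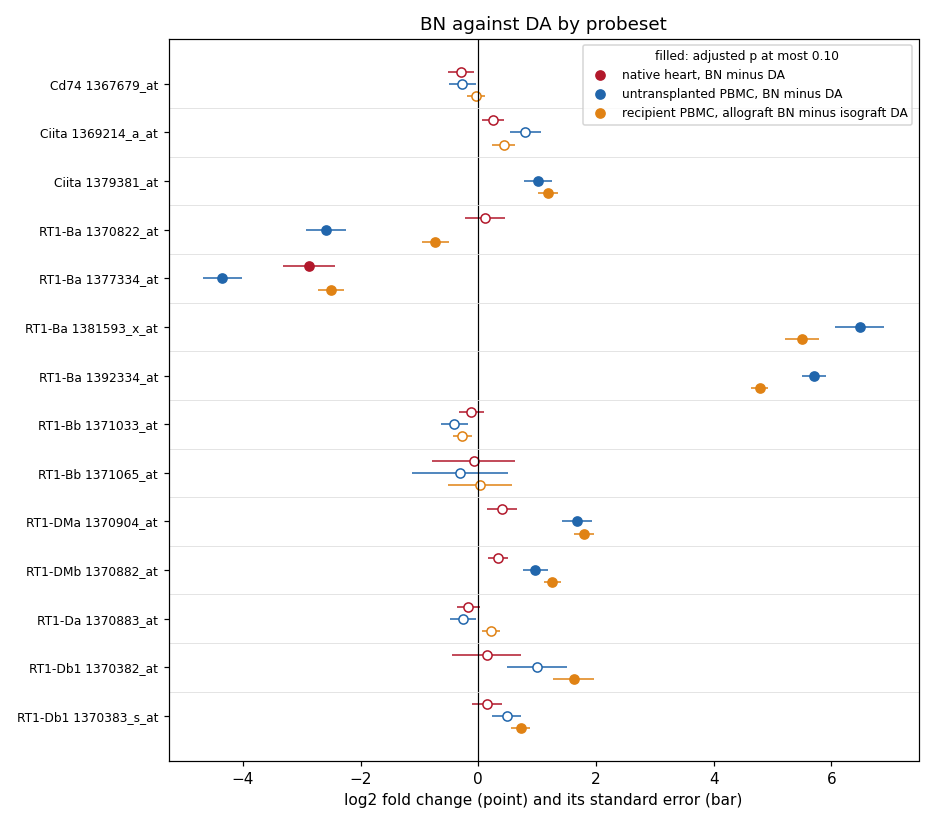
Log2 fold change (point) and standard error (bar) of the 14 class II probesets for native BN minus native DA hearts, untransplanted BN minus DA PBMC and allograft minus isograft recipient PBMC, with 3 probesets on the PBMC array only. Filled points passed at an adjusted p of at most 0.10. In PBMC, 1370822_at and 1377334_at of RT1-Ba lie between -4.35 and -0.73 and the other 2 between 4.78 and 6.48.

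The same probesets separated BN allograft recipients from DA isograft recipients, a comparison that holds strain and rejection together. 1392334_at had 121, 82.4, 81.2, 83.6 and 82.3 array medians in allograft recipients, against 2.79 to 4.26 (median 3.23) in the 9 isograft recipients. It was 27.4-fold higher (SE 0.14, limma adjusted p = 5.77e-14), and 1381593_x_at was 45.4-fold higher (SE 0.29, limma adjusted p = 4.45e-10). 1377334_at had 3.58, 2.34, 1.56, 3.29 and 2.45 array medians in allograft recipients, against 10.9 to 21.2 (median 14.6) in isograft recipients, a 5.68-fold lower signal (log2 fold change -2.51, SE 0.22, limma adjusted p = 5.87e-07). 1370822_at had 13.9, 11.6, 15.2, 13.7 and 17.6 array medians in allograft recipients, against 13.4 to 36.1 (median 22.6) in isograft recipients. For this probeset the groups overlapped, and the 1.66-fold lower signal (log2 fold change -0.73, SE 0.23, limma adjusted p = 0.0425) did not pass without allograft recipient 4 (adjusted p = 0.112).

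RT1-DMa had 51.2, 31.5, 25.3, 36.1 and 33.6 array medians in allograft recipients, against 8.13 to 14.4 (median 9.60) in isograft recipients (3.46-fold, SE 0.17, limma adjusted p = 1.03e-06). RT1-DMb had 85.7, 54.7, 63.8, 55.6 and 56.5 array medians in allograft recipients, against 20.6 to 35.7 (median 25) in isograft recipients (2.39-fold, SE 0.14, limma adjusted p = 7.47e-06). No isograft recipient reached the lowest allograft recipient for either gene. RT1-Db1 was 3.08-fold higher by 1370382_at (SE 0.35, limma adjusted p = 0.00424), with overlap, and 1.65-fold by 1370383_s_at (SE 0.16, limma adjusted p = 0.00573), without. Ciita was 2.27-fold higher by 1379381_at (SE 0.17, limma adjusted p = 7.8e-05), at 9.2 to 14.2 array medians in allograft recipients and 3.96 to 6.83 in isograft recipients. 1369214_a_at was at 1.35-fold and did not pass (SE 0.19, limma adjusted p = 0.15), but passed under both other scalings (adjusted p = 0.0258 and 0.0337).

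Cd74 had 156, 115, 124, 119 and 120 array medians in allograft recipients, against 92.9 to 173 (median 122) in isograft recipients. It did not pass (0.975-fold, SE 0.16, limma adjusted p = 0.92), but under quantile normalization it was higher by 0.39 on the log2 scale with an adjusted p of 0.00123, so that its direction in recipients depends on the scaling. RT1-Da had 128, 94.4, 98.0, 93.7 and 94.3 array medians in allograft recipients, against 66.9 to 116 (median 81.8) in isograft recipients (1.16-fold, SE 0.15, limma adjusted p = 0.423), and it passed as higher under quantile normalization and with the deposited scaling (adjusted p = 4.85e-05 and 0.0525). RT1-Bb 1371033_at had 35.8, 36.3, 35.4, 46.8 and 35.7 array medians in allograft recipients, against 34.1 to 62.0 (median 45.3) in isograft recipients (0.829-fold, SE 0.16, limma adjusted p = 0.295). Among the 14 member probesets 7 passed as higher and 2 as lower in allograft recipients (6.66% and 12% of all probesets). The calls were 4 higher and 1 lower (0.403% and 0.638%). Over all probesets 2066 passed as higher and 3720 as lower, against 3394 and 3455 under quantile normalization and 3666 and 2929 with the deposited scaling.

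**Figure D4:**
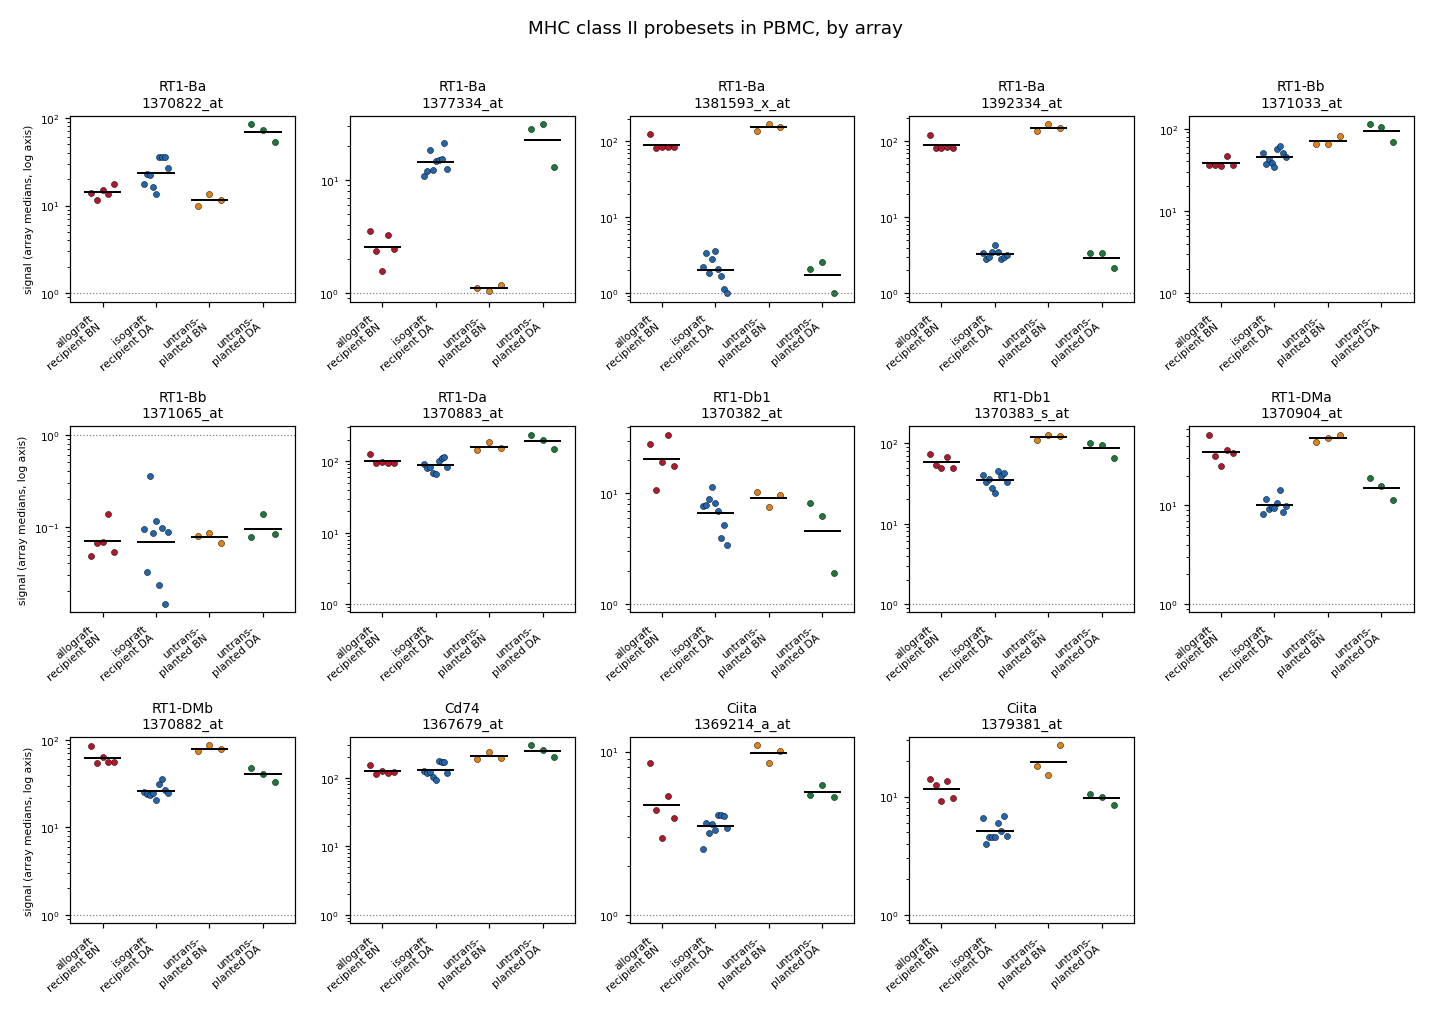
Signal of the 14 class II probesets in array medians (log axis) in PBMC of allograft recipients (BN), isograft recipients (DA) and untransplanted rats of each strain (BN left of DA), 1 point per rat, with the geometric mean as a bar and the array median as a dotted line. Of the RT1-Ba panels, 1381593_x_at and 1392334_at are high in BN and 1377334_at in DA, 1370822_at is high in DA with overlap among recipients, and the panels of RT1-DMa and RT1-DMb are higher in BN in both batches.

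Within 1 sample the signals of 2 RT1-Ba probesets can be compared without scaling between arrays. The log2 ratio of 1377334_at to 1392334_at was -5.13 ± 0.37 in allograft recipients (SD, n = 5) and 2.15 ± 0.41 in isograft recipients (SD, n = 9). The difference of -7.28 was without overlap (two-sided exact permutation p = 5e-04, the lowest value possible with 5 and 9 rats, adjusted p = 0.0024 over the 24 tests). In untransplanted rats the same ratio was -7.09 ± 0.22 in BN and 2.95 ± 0.32 in DA rats (SD, n = 3 each), a difference of -10.04 (exact permutation p = 0.1, the lowest possible with 3 rats each, adjusted p = 0.15). All 6 pairs of RT1-Ba probesets were without overlap in untransplanted rats, and none could pass an adjusted p of 0.10 at that number of rats. With 3 rats each, a pair that does not differ is without overlap with probability 0.1. The 6 pairs are formed from 4 probesets and are not independent of each other. In recipients all 6 passed, and 5 were without overlap. The exception was the pair with a shared source sequence, 1381593_x_at and 1392334_at, whose ratio differed by 0.72 (exact permutation p = 0.019, adjusted p = 0.0506, n = 5 and 9).

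Pairs of 3 other genes were also compared. In recipients the Ciita ratio of 1369214_a_at to 1379381_at was -1.30 ± 0.34 in allograft recipients (SD, n = 5) and -0.55 ± 0.36 in isograft recipients (SD, n = 9; exact permutation p = 0.0035, adjusted p = 0.014). The RT1-Db1 ratio of 1370382_at to 1370383_s_at was -1.50 ± 0.48 in allograft recipients (SD, n = 5) and -2.41 ± 0.74 in isograft recipients (SD, n = 9; exact permutation p = 0.038, adjusted p = 0.0911). Both overlapped between the groups. The RT1-Bb ratio of 1371033_at to the dim 1371065_at differed by -0.30 (exact permutation p = 0.693, n = 5 and 9). Between untransplanted BN and DA rats the ratios of Ciita, RT1-Db1 and RT1-Bb differed by -0.22, 0.51 and -0.11, all with overlap. Their exact permutation p-values were 0.5, 0.5 and 0.6 (n = 3 each), where 0.1 is the lowest possible.

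Of the partner chains, RT1-Db1 1370383_s_at over RT1-Da was -0.80 ± 0.21 in allograft recipients (SD, n = 5) and -1.31 ± 0.12 in isograft recipients (SD, n = 9), without overlap (exact permutation p = 5e-04, adjusted p = 0.004 over 8 tests). In untransplanted rats it was -0.39 ± 0.12 in BN and -1.14 ± 0.06 in DA rats (SD, n = 3 each; exact permutation p = 0.1, adjusted p = 0.133). In native hearts it was -0.84 ± 0.32 in BN (SD, n = 5) and -1.15 ± 0.36 in DA hearts (SD, n = 4), with overlap (exact permutation p = 0.222, adjusted p = 0.254). The ratio of RT1-Bb 1371033_at to RT1-Ba 1370822_at, which had differed by 1.21 between the grafts, was 2.61 ± 0.29 in untransplanted BN and 0.44 ± 0.06 in untransplanted DA rats (SD, n = 3 each). It thus differed by 2.17 without overlap between strains that carried no graft (exact permutation p = 0.1, adjusted p = 0.133). In allograft recipients it was 1.40 ± 0.31 (SD, n = 5) and in isograft recipients 0.95 ± 0.35 (SD, n = 9), with overlap (exact permutation p = 0.0345, adjusted p = 0.0689). In native hearts it was 0.13 ± 0.82 in BN (SD, n = 5) and 0.35 ± 0.22 in DA hearts (SD, n = 4), with overlap (exact permutation p = 0.651, adjusted p = 0.651).

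The ratio of both PBMC effects sets the recipient difference against the difference of untransplanted rats. Of the RT1-Ba probesets 2 passed and were called, 1370822_at with a ratio of 3.6 (log2 1.85, SE 0.41, limma adjusted p = 0.0859) and 1377334_at with 3.58 (log2 1.84, SE 0.40, limma adjusted p = 0.0752), where 0.213% of all probesets passed as higher and 0.0709% were called. None passed or was called as lower (0.135% and 0.0515%). Both were lower in BN rats in both batches, and less so in the recipients. The adjusted p rose above 0.10 in 15 and 12 of the 20 fits that left out 1 rat. For the other 12 member probesets the log2 ratio lay between -0.97 and 0.63 and none passed. The lowest were the other RT1-Ba probesets, 1381593_x_at (-0.97, SE 0.51, limma adjusted p = 0.648) and 1392334_at (-0.92, SE 0.25, limma adjusted p = 0.209). These were higher in BN rats in both batches, and less so in the recipients, so the direction of the ratio for RT1-Ba depends on the probeset. The median over the 8 genes was 0.20, against 0.02 over all probesets.

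Cell type markers and pathway genes differed in the same PBMC comparisons. Of all PBMC probesets 3.58% passed as higher and 4.86% as lower in untransplanted BN rats. In allograft recipients the shares were 6.66% and 12%. In untransplanted BN rats 7 of 12 monocyte and macrophage genes passed as higher than in DA rats, with summed signals of 268 to 331 array medians in BN and 239 to 358 in DA rats, which overlap. Of 10 T cell genes 8 passed as lower (467 to 520 array medians in BN and 856 to 899 in DA rats), and 1 of 8 B cell genes, Cd22, passed as higher (257 to 341 and 199 to 245 array medians). Of 5 dendritic cell genes Itgax passed as higher, and their summed signal did not overlap (45.4 to 49.6 array medians in BN and 24.8 to 32.9 in DA rats). Of 5 neutrophil genes Csf3r passed as higher (18.3 to 19.9 and 9.35 to 12.6). In allograft recipients 9 monocyte and macrophage genes passed as higher and 1 as lower than in isograft recipients (245 to 385 and 206 to 317 array medians), and 5 of 8 B cell genes as higher (108 to 170 and 68.0 to 112). Of the dendritic cell genes Itgax passed as higher and Flt3 as lower, again without overlap of the sums (35.6 to 63.7 and 21.9 to 32.0). Flt3 was below the array median in every recipient of either graft. Of the neutrophil genes 4 passed as higher and Camp as lower (69.1 to 219 and 15.6 to 72.7). All 10 T cell genes (211 to 359 and 341 to 580) and all 5 red cell genes (17.2 to 77.0 and 53.8 to 313) passed as lower. The part of cell composition in the class II differences was not tested.

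Of the 11 processing genes 5 passed as higher and 1 as lower in untransplanted BN rats (3.58% and 4.86% of all probesets). Among the higher ones was the ubiquitin ligase Marchf8 (2.61-fold, SE 0.31). In allograft recipients 6 passed as higher and 1 as lower (6.66% and 12% of all probesets). Cst3 was the lower one in both, at 0.65 times the DA level in untransplanted rats (SE 0.17) and 0.486 times in recipients (SE 0.12). The costimulatory receptor Cd40 was higher in BN rats of both batches, 2.66-fold without a transplant (SE 0.27, limma adjusted p = 0.00418) and 3.26-fold in allograft recipients (SE 0.19, limma adjusted p = 5.71e-06). None of the 15 genes of class II transcription and interferon gamma signalling passed in untransplanted rats. In recipients 3 of these 15 passed as higher and 2 as lower, where 6.66% and 12% of all probesets did. The count of lower genes is thus near the share over all probesets. Creb1 (1.79-fold, SE 0.19) had the largest change.

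Cd74 was taken as the pattern with which other genes were compared, over all arrays of a tissue. In heart the 5 genes outside the family most like it, of 6142, were Sec11a (Pearson's r = 0.987), Psmb10 (0.984), Txn1 (0.979), Erh (0.972) and Bola2 (0.965), over 18 hearts that share the contrast between allografts and the rest. Erh and Txn1 were also among the 5 highest by Spearman's rho. Among the member probesets RT1-DMb 1370882_at was most like it (r = 0.944) and RT1-Bb 1371065_at least (0.334). In PBMC, after the mean of each batch was subtracted, Pnrc2 (0.877), Msn (0.875), Shisa5 (0.875), Atp5pb (0.874) and Sdhd (0.87) led among 8969 genes over 20 arrays. RT1-Da 1370883_at exceeded them there (r = 0.899), while 1381593_x_at and 1392334_at of RT1-Ba were at -0.247 and -0.214. These correlations are descriptions of how signals moved together over samples that differ in strain, graft and cell composition.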

How the data were processed

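Expression was measured on 18 heart and 20 PBMC arrays, 1 per rat sample. The authors derived linear signal intensities with MAS5, scaled to a 2% trimmed mean near 100, and deposited them (MAS5 version and present calls not used here). Each array was divided by its median and log2 transformed. Control probesets (57 per array) were left out. Each tissue was fitted with limma 3.58.1 (R 4.3.3, lmFit and eBayes) with 1 mean per group, a fit that was tested on simulated data. Ratios of 2 probesets within a sample were compared by two-sided exact permutation tests. Precision is limited by how many rats each group holds.

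Symbols came from the platform annotation, updated through the GRCr8 gene table. A single symbol was given for 12783 heart and 20826 PBMC probesets, several for 312 and 436, and none for 2771 and 9780. Members, gene lists and tests were chosen with earlier results of these data known. Named genes are all member probesets, up to 3 genes per list and comparison with the largest change that passed, and the 5 genes most like Cd74. A gene of a list is given by its brightest probeset. Alternatives were quantile normalization, the deposited scaling, an added 0.25 array medians, a 65th percentile criterion, filtered testing, no moderation, 2 groups alone, replicate blocks and leaving out each sample.

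Native and transplanted hearts of 1 number come from the same recipient and therefore pair. Their deviations from the group means correlated between -0.045 and 0.118.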

Additional observations from a re-analysis of the deposited data

Results flagged for a closer look

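In 72 sets of 4 to 9 samples (a member probeset in a group), 8 had 1 sample set apart from the rest by Dixon's criterion, of which chance gives about 1 in 20. Allograft recipient 3 was high for 4 probesets: RT1-Ba 1381593_x_at (124 array medians, the others 81.6 to 85.4), RT1-Ba 1392334_at (121, the others 81.2 to 83.6), RT1-Da 1370883_at (128, the others 93.7 to 98.0) and Cd74 (156, the others 115 to 124). Allograft recipient 6 was high for RT1-Bb 1371033_at (46.8, the others 35.4 to 36.3). Native DA heart 13 was high for RT1-Ba 1377334_at (1.86, the others 1.09 to 1.19) and RT1-DMb 1370882_at (4.76, the others 3.51 to 3.63). Allograft 5 was low for RT1-Bb 1371065_at (0.0433, the others 0.255 to 0.523).

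The BN against DA difference in PBMC passed the test of a change between untransplanted rats and recipients for RT1-Ba 1370822_at (difference of the log2 fold changes 1.85, limma adjusted p = 0.0859) and 1377334_at (1.84, limma adjusted p = 0.0752). The adjusted p exceeded 0.10 in 15 and 12 of the 20 fits without 1 rat, and neither passed without moderation. The other RT1-Ba probesets, 1381593_x_at and 1392334_at, went the other way (-0.97 and -0.92) and did not pass. Transplantation and batch cannot be told apart within a strain.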

How the results depend on the processing

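Under all alternatives, sample omissions included, the numbers of class II probesets that passed or were called stayed within 1.5 times for the rejection effect, for allografts against native BN hearts and for the PBMC strain effect. The heart strain call of RT1-Ba 1377334_at became 0 calls with a criterion at the 65th percentile. In isografts the 1 probeset that passed as lower became 0 under quantile normalization, 0.25 added array medians, testing of only probesets past the criterion, no moderation and a replicate block (recipient), and 0 to 1 over omissions (0 without isograft or native DA heart 9, 11 or 12). The 1 called as higher became 2 under quantile normalization and the deposited scaling, and was 1 to 2 over omissions (2 without native DA heart 9, 11 or 13 or isograft 12). In recipient PBMC the 2 that passed as lower were 1 to 2 over omissions (1 without allograft recipient 4). For the ratio of both PBMC effects, the 2 that passed and were called became 1 under quantile normalization, 0 without moderation and 1 with a replicate block by rat number, with 0 to 2 over omissions (passing as lower, 0 to 1, with 1 only without allograft recipient 3). Numbers of untransplanted rats share only a number (correlations of deviations 0.00304 to 0.0365, best with the own number in 1 of 3). In grafts 2 rather than 1 probeset pairs passed with 0.25 added array medians. Cd74 in recipients turned from -0.04 to 0.39 under quantile normalization. The deposited scaling moved the median of all probesets from -0.03 to 0.10 (log2) in recipients and from -0.08 to 0.08 in untransplanted rats. Over all probesets, 0.25 added array medians changed the native heart counts to 357 passing and 13 called as higher, against 235 and 25. It changed the isograft calls to 82 higher and 6 lower, against 131 and 13, and the recipient calls to 74 higher and 131 lower, against 125 and 198. Under quantile normalization 13 rather than 22 were called higher for the ratio of both PBMC effects. The causes were not tested. Small groups limit the precision, and weak signals such as RT1-Bb 1371065_at carry little information.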
